A study of Mus musculus with 4 samples.

Results

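The proteasome genes were taken by symbol: every gene named Psma, Psmb, Psmc, Psmd, Psme, Psmf or Psmg followed by a digit, with a probe set of the array assigned to that symbol alone. This gave 49 of the 18193 genes measured, each represented by its brightest probe set. The probe sets were thus chosen by their mean level over all 4 arrays, while the difference between groups was not part of the choice. By name, 47 belonged to the proteasome, its activators or its assembly factors, and 2 (Psmc3ip and Psme3ip1) were proteins named after a subunit that they bind. Psme2, the partner of Psme1 in an activator ring, shared its probe set with the symbol Psme2b and was therefore not a member. RNA came from mouse skin squamous cell carcinomas that had been induced chemically and were labelled malignant. Per the labels' protocols, living Epcam-positive cells lacking CD45, CD31 and CD140a were sorted as tumour epithelial cells. They were divided into Sox2-GFP-positive cells (n = 2 arrays) and Sox2-GFP-negative cells, the control (n = 2 arrays), from 2 carcinomas of 2 mice. By the labels the tumours carried a Sox2-GFP reporter, so the negative cells are reporter cells without green fluorescence. The sources used here give neither the carcinogen, strain or age of the mice nor the construction of the reporter.

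The proteasome is the protease of the cytoplasm and nucleus that degrades proteins tagged with ubiquitin. Its barrel-shaped core is built of alpha rings, which gate the entrance, and beta rings, which hold the proteolytic sites, and a cap made of a base and a lid recognises, deubiquitinates and unfolds the substrate. Under interferon the catalytic beta subunits Psmb5, Psmb6 and Psmb7 can be replaced by Psmb8, Psmb9 and Psmb10, which gives the immunoproteasome, a source of peptides for MHC class I. Proteasome subunit genes are known to be induced together by the transcription factor Nfe2l1 when proteasome activity falls short, and proliferating tumour cells are known for a high demand on the proteasome.

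The deposited values were log2 intensities, with array medians of 5.49 to 5.60 over the probe sets that were not controls. Keratinocyte markers were bright in all 4 arrays (Krt5 at 13.24 to 13.32 and Krt14 at 12.99 to 13.07), and Epcam read 10.75 to 11.80. Of the 7 measured in this list, 4 had both positive arrays above both negative arrays and 2 had both below. The shares over all genes were 35.5% and 14%. For Krt14 (above) and Krt5 (below) the groups nearly touched, with gaps of 0.011 and -0.0015 log2 units. Itgb4 read 11.90 and 12.37 in positive and 10.95 and 10.88 in negative arrays, and Krt15 10.47 and 9.48 against 10.73 and 10.93. Sox2 itself lay at the floor, at 3.50 and 3.27 in the positive and 3.14 and 3.43 in the negative arrays, so its transcript could not serve as a check of the labels. The fibroblast list of 10 genes, another cell type that the gate was meant to remove, had mean log2 levels of 8.63 and 6.25 in positive and of 10.79 and 9.16 in negative arrays. In such bulk samples, fewer cells of a type and less RNA per cell cannot be told apart. Every difference given is the mean of the positive arrays minus that of the negative arrays, in log2 units, and the median over all 18193 genes was 0.14.

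Most subunits of the core and cap lay higher in Sox2-GFP-positive cells by a modest amount, with a median log2 difference of 0.36 over 31 genes. For 26 of these 31, both positive arrays lay above both negative arrays, for 1 (Psmd11) both lay below, and for 4 the groups overlapped. Of all genes, 35.5% had both positive arrays above and 14% had both below; among the 9097 brighter genes the shares were 39.8% and 16.8%. Of all 49 members, 6 were separated upwards by at least 0.5 log2 units (Psma1, Psmd8, Psmd13, Psmb10, Psmf1 and Psmd10) and 0 downwards, beside 5.23% and 3.67% of all genes. No member passed the limma test at a Benjamini-Hochberg adjusted p of 0.05 over all genes, where 0 of 18193 (0%) passed. Adjusted p over the 49 members ran from 0.200 to 0.956, and with the replicate number as a block it ran from 0.133 to 0.961, again with no member past the threshold, where 0.0715% of all genes were higher and 0.868% lower. At an unadjusted p under 0.05 in limma stood 12 of the 49, all higher, beside 9.75% of all genes higher and 5.22% lower. Each group holds 2 arrays, so the order of the arrays describes these samples only.

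**Figure D1:**
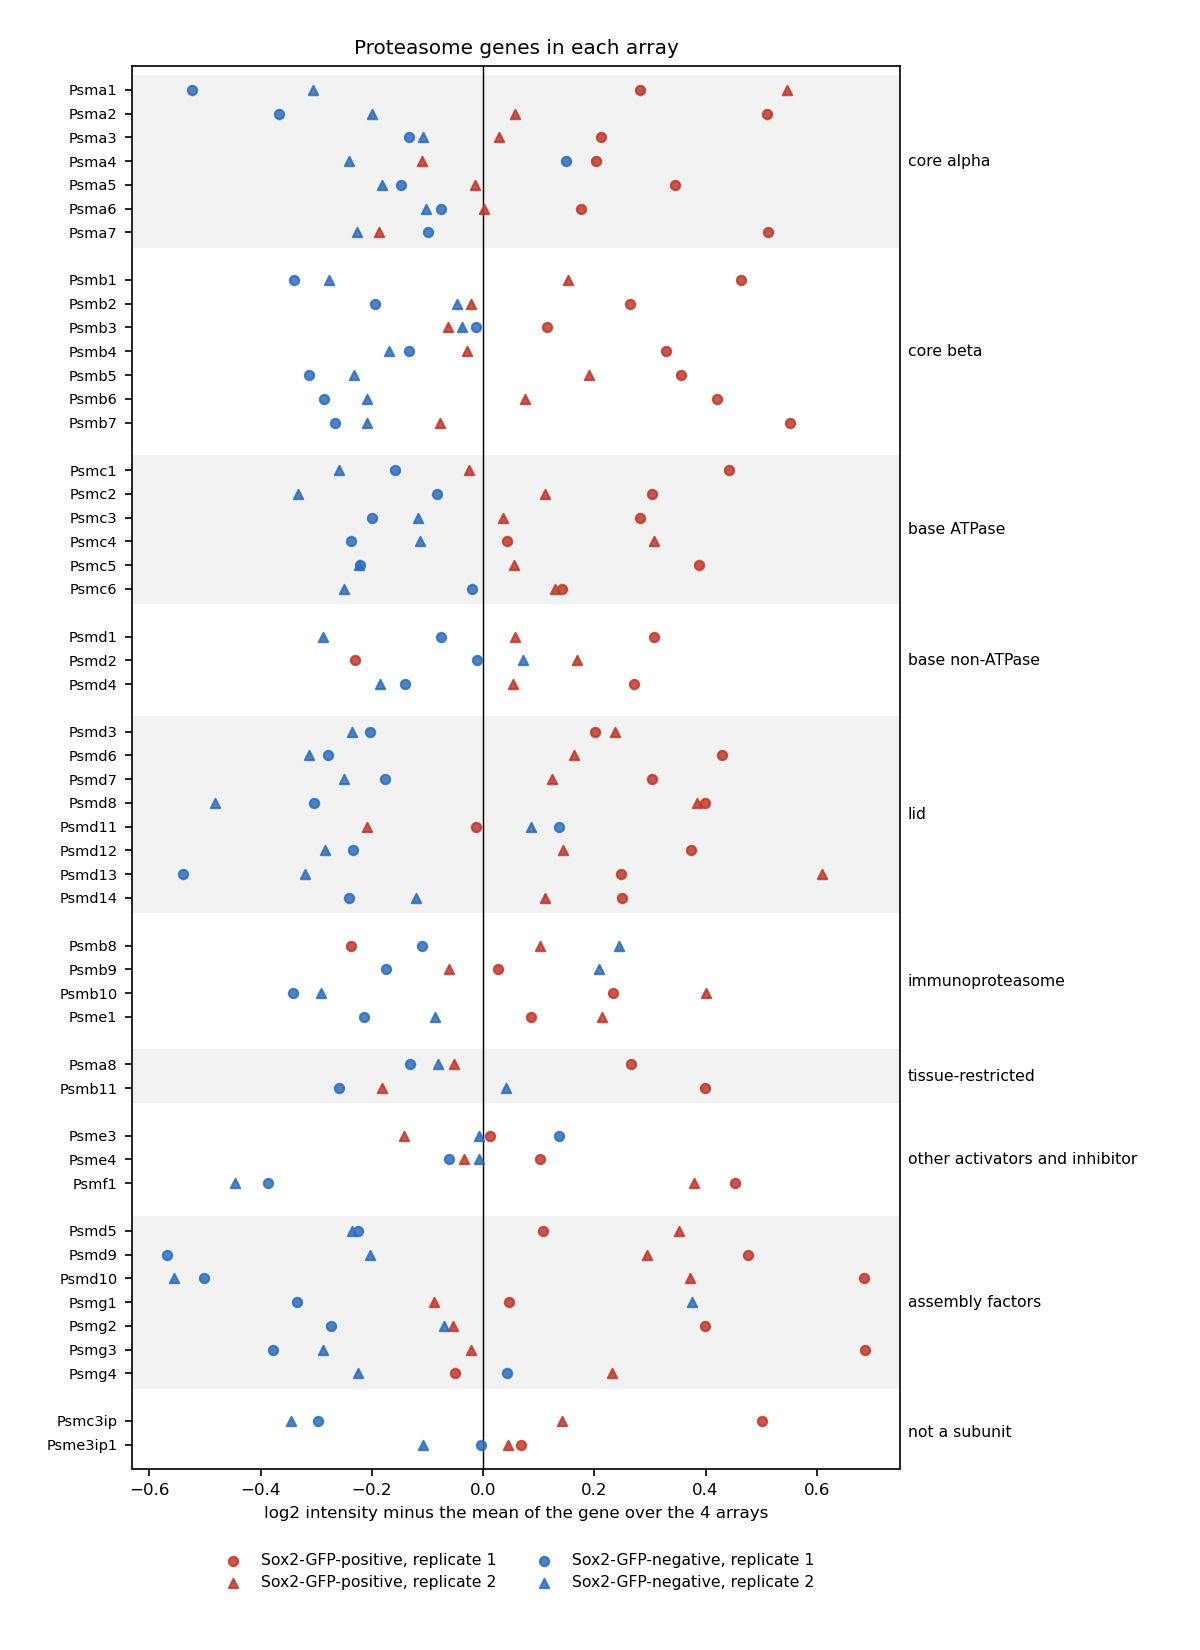
Log2 intensity of each of the 49 proteasome genes in each array, as the distance from the mean of the gene over the 4 arrays (x axis, log2 units), with genes on the y axis by subunit group. Red points are Sox2-GFP-positive and blue points Sox2-GFP-negative arrays, circles replicate 1 and triangles replicate 2; for 37 of the 49 genes both red points lie to the right of both blue points.

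The alpha subunits, which form the outer rings of the core, had a median difference of 0.33, and 5 of 7 were separated upwards. Psma1 read 9.81 and 10.08 in positive and 9.005 and 9.22 in negative arrays (0.83 ± 0.21 SE, n = 2 per group, limma adjusted p = 0.236), a 1.78-fold ratio and the widest among the alpha genes. Its arrays were far apart between groups and close within them on this probe set, but with its 4 probe sets averaged the difference was -0.02. Psma2 read 11.24 and 10.78 against 10.36 and 10.53 (0.57 ± 0.24 SE). The groups of Psma4 overlapped, at 10.92 and 10.60 against 10.86 and 10.47, as did those of Psma7, where only positive replicate 1 (11.95) stood above the rest (11.21 to 11.34). Differences for Psma3, Psma5 and Psma6 were 0.24, 0.33 and 0.18, that of Psma3 being -0.43 with its probe sets averaged.

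Among the beta subunits the median difference was 0.48, and 6 of 7 were separated upwards, with the groups overlapping for Psmb3 only (11.82 and 11.64 against 11.69 and 11.67, a difference of 0.05). The dimmer probe set of Psmb3 was separated upwards, at 10.74 and 10.21 against 9.75 and 9.96, and the average of both gave 0.34. Psmb1, a structural subunit, read 10.64 and 10.33 against 9.84 and 9.90 (0.62 ± 0.21 SE, n = 2 per group, limma adjusted p = 0.294). Psmb2 and Psmb4, also without a proteolytic site, differed by 0.24 and 0.30. The 3 proteolytic subunits of the constitutive core all had both positive arrays above both negative arrays. Psmb5, which cuts after hydrophobic residues, read 10.52 and 10.35 against 9.85 and 9.93 (0.55 ± 0.19 SE). Psmb6, which cuts after acidic residues, read 10.99 and 10.64 against 10.28 and 10.36 (0.50 ± 0.21 SE). Psmb7, which cuts after basic residues, read 12.10 and 11.47 against 11.28 and 11.34 (0.48 ± 0.27 SE), with positive replicate 1 alone well above the others. Over the 14 core genes the median difference was 0.33; within replicate 1 it was 0.55 and within replicate 2 it was 0.14. Without positive replicate 1 it was 0.15 and without positive replicate 2 it was 0.57, so the size for the core rests largely on 1 array.

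The immunoproteasome subunits were not alike. Psmb8, which takes the place of Psmb5, read 9.20 and 9.54 in positive and 9.32 and 9.68 in negative arrays (-0.14 ± 0.24 SE, n = 2 per group, limma adjusted p = 0.811), with overlapping groups. Psmb9, which takes the place of Psmb6, read 9.23 and 9.14 against 9.03 and 9.41 (-0.03 ± 0.22 SE, adjusted p = 0.951), and the positive arrays lay between the negative ones. Psmb10, which takes the place of Psmb7, had groups that did not overlap, at 9.64 and 9.81 against 9.06 and 9.11 (0.63 ± 0.19 SE, adjusted p = 0.257), a 1.55-fold ratio. Psme1, an activator ring subunit also induced by interferon gamma, read 10.86 and 10.99 against 10.56 and 10.69 (0.30 ± 0.19 SE, adjusted p = 0.508). Thus 2 of the 4 were separated upwards and none downwards, and the group median of 0.13 was close to that of all genes. That median ran from 0.01 without negative replicate 1 to 0.26 without negative replicate 2.

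Within an array, the log2 value of an inducible subunit minus that of its constitutive partner shows whether the 2 changed unequally, although its absolute size has no meaning between probe sets. For Psmb8 minus Psmb5 this was -1.33 and -0.82 in the positive and -0.53 and -0.25 in the negative arrays, lower by a mean of -0.68 in positive cells. For Psmb9 minus Psmb6 it was -1.76 and -1.50 against -1.25 and -0.95, a mean shift of -0.53. Both positive arrays lay below both negative arrays for these pairs. For Psmb10 minus Psmb7 it was -2.46 and -1.66 against -2.21 and -2.22, a shift of 0.16 with overlapping groups. The exact two-sided permutation test over the arrays gave p = 0.333, 0.333 and 1 for the 3 pairs, and with 2 arrays against 2 it cannot go below 0.333. A shift common to both genes of an array, such as any scaling constant, leaves these values as they are.

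**Figure D2:**
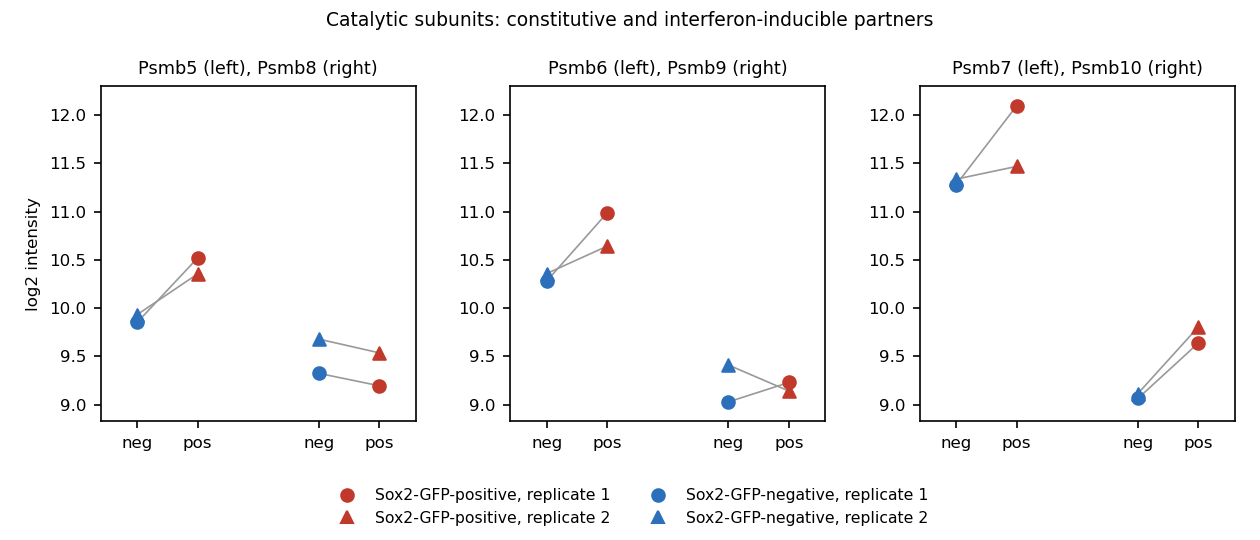
Log2 intensity (y axis) of the constitutive catalytic subunits and their inducible partners in Sox2-GFP-negative (neg) and Sox2-GFP-positive (pos) arrays (x axis), with grey lines joining arrays of the same replicate number. Heights are not comparable between genes; Psmb5, Psmb6 and Psmb7 lie higher in both positive arrays, Psmb8 and Psmb9 overlap, and Psmb10 lies higher in both.

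The promoters of the catalytic genes other than Psmb7 are shown, together with that of Psmd10, the gene with the widest difference of all members. Windows run from 250 bases before to 50 bases after the start site (RefSeq, GRCm38.p6), 5′ to 3′ on the strand of the gene: Psmb5 at chr14:54617946-54618245 (minus strand), Psmb6 at chr11:70525107-70525406 (plus), Psmb8 at chr17:34197945-34198244 (plus), Psmb9 at chr17:34187281-34187580 (minus), Psmb10 at chr8:105938343-105938642 (minus) and Psmd10 at chrX:140956662-140956961 (minus). Capitals mark matches on either strand to TGACNNNGC (in Psmb5 and Psmb6) and CCAAT, which reads ATTGG from the opposite strand (in Psmb9 and Psmd10); no match to these or to GAAANNGAA was found in the Psmb8 and Psmb10 windows.
Psmb5: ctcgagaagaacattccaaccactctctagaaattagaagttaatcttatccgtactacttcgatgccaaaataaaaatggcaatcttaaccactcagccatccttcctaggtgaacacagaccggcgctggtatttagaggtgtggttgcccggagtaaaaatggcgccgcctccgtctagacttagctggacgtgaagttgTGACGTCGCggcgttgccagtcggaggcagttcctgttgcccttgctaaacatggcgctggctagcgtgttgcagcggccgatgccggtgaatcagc
Psmb6: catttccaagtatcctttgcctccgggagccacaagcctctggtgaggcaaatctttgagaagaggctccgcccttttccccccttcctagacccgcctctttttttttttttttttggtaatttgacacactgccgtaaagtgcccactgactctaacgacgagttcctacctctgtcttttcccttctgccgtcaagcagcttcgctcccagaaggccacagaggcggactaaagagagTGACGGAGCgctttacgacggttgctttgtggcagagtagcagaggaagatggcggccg
Psmb8: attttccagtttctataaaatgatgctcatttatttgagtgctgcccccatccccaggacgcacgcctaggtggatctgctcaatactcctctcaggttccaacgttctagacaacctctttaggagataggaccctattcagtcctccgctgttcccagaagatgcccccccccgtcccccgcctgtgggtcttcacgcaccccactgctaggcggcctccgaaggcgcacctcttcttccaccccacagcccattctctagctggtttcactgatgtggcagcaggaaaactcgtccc
Psmb9: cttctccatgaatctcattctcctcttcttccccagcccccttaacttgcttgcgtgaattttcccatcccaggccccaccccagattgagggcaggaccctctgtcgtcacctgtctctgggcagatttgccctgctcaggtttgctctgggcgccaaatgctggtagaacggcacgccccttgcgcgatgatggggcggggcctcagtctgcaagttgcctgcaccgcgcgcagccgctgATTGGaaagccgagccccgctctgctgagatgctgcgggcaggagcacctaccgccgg
Psmb10: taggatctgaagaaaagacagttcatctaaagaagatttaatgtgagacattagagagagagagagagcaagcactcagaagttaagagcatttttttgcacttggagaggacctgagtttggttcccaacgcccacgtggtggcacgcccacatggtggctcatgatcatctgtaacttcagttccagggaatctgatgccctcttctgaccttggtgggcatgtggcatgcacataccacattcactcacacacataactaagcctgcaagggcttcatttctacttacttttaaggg
Psmd10: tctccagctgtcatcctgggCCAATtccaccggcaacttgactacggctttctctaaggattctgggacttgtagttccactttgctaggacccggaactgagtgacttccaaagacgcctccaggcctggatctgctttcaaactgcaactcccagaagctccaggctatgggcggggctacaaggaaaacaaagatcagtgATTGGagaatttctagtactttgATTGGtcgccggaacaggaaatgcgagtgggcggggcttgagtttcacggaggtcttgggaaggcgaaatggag

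TGACNNNGC is the core of the antioxidant response element, to which Nfe2l1 and Nfe2l2 bind with small Maf proteins. It was present in 6 of the 39 subunit-group members with a window (15.4%) and in 12.5% of the first-listed windows of 27025 genes. The looser TGANNNNGC, which includes every match to it, was present in 21 of 39 (53.8%) against 41.4%. GAAANNGAA, part of the interferon-stimulated response element, was present in 6 of 39 (15.4%) against 8.57%. These were Psmb3, Psmb4, Psmd4, Psmd9, Psme1 and Psmg4. CCAAT, bound by nuclear factor Y, was present in 14 of 39 (35.9%) against 37.9%. These are matches of letters in a short window, searched on both strands, and say nothing of binding.

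In the base of the cap, the 6 ATPases that unfold substrates were all separated upwards, with differences from 0.27 (Psmc6) to 0.44 (Psmc5) and adjusted p from 0.403 to 0.553 in limma. The order within this range depended on the probe set: with the probe sets of a gene averaged, Psmc6 had 0.56, Psmc1 0.21 and Psmc2 0.22. Psmc5 read 11.20 and 10.87 in positive and 10.59 and 10.59 in negative arrays. Of the other base subunits, Psmd1, a scaffold, and Psmd4, a ubiquitin receptor, were separated upwards with differences of 0.36 and 0.33. Psmd2, the second scaffold, read 10.61 and 11.01 against 10.83 and 10.91 (-0.06 ± 0.22 SE, n = 2 per group, adjusted p = 0.915), with the positive arrays on either side of the negative ones.

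The lid, which removes ubiquitin chains, held the widest difference of the core and cap, and 7 of its 8 genes were separated upwards. Psmd13 read 9.68 and 10.04 against 8.89 and 9.11 (0.86 ± 0.23 SE, n = 2 per group, limma adjusted p = 0.237), a 1.81-fold ratio. Psmd8 read 11.60 and 11.59 against 10.90 and 10.72 (0.79 ± 0.19 SE, adjusted p = 0.224), with positive arrays almost equal. Both are structural lid subunits. Psmd6 and Psmd12 differed by 0.59 and 0.52, Psmd3 and Psmd7 by 0.44 and 0.43, and Psmd14, the deubiquitinase of the lid, by 0.36 (11.15 and 11.01 against 10.66 and 10.78). Psmd11 was the exception, at 11.10 and 10.90 against 11.24 and 11.19 (-0.22 ± 0.19 SE, adjusted p = 0.617). Of its 7 probe sets with a mean above the highest array median, 3 had a positive difference, and the range was -0.29 to 0.58. Those 3 all had overlapping groups, the widest at 8.12 and 7.45 against 6.82 and 7.59. Besides the brightest, probe sets at 8.17 and 8.26 against 8.48 and 8.53, and at 7.68 and 7.55 against 7.84 and 7.91, were separated downwards. As the signs differed, no direction could be given for this gene. Over the 17 cap genes the median difference was 0.42, with 0.48 within replicate 1 and 0.38 within replicate 2, and it ran from 0.29 to 0.49 when each array was left out.

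**Figure D3:**
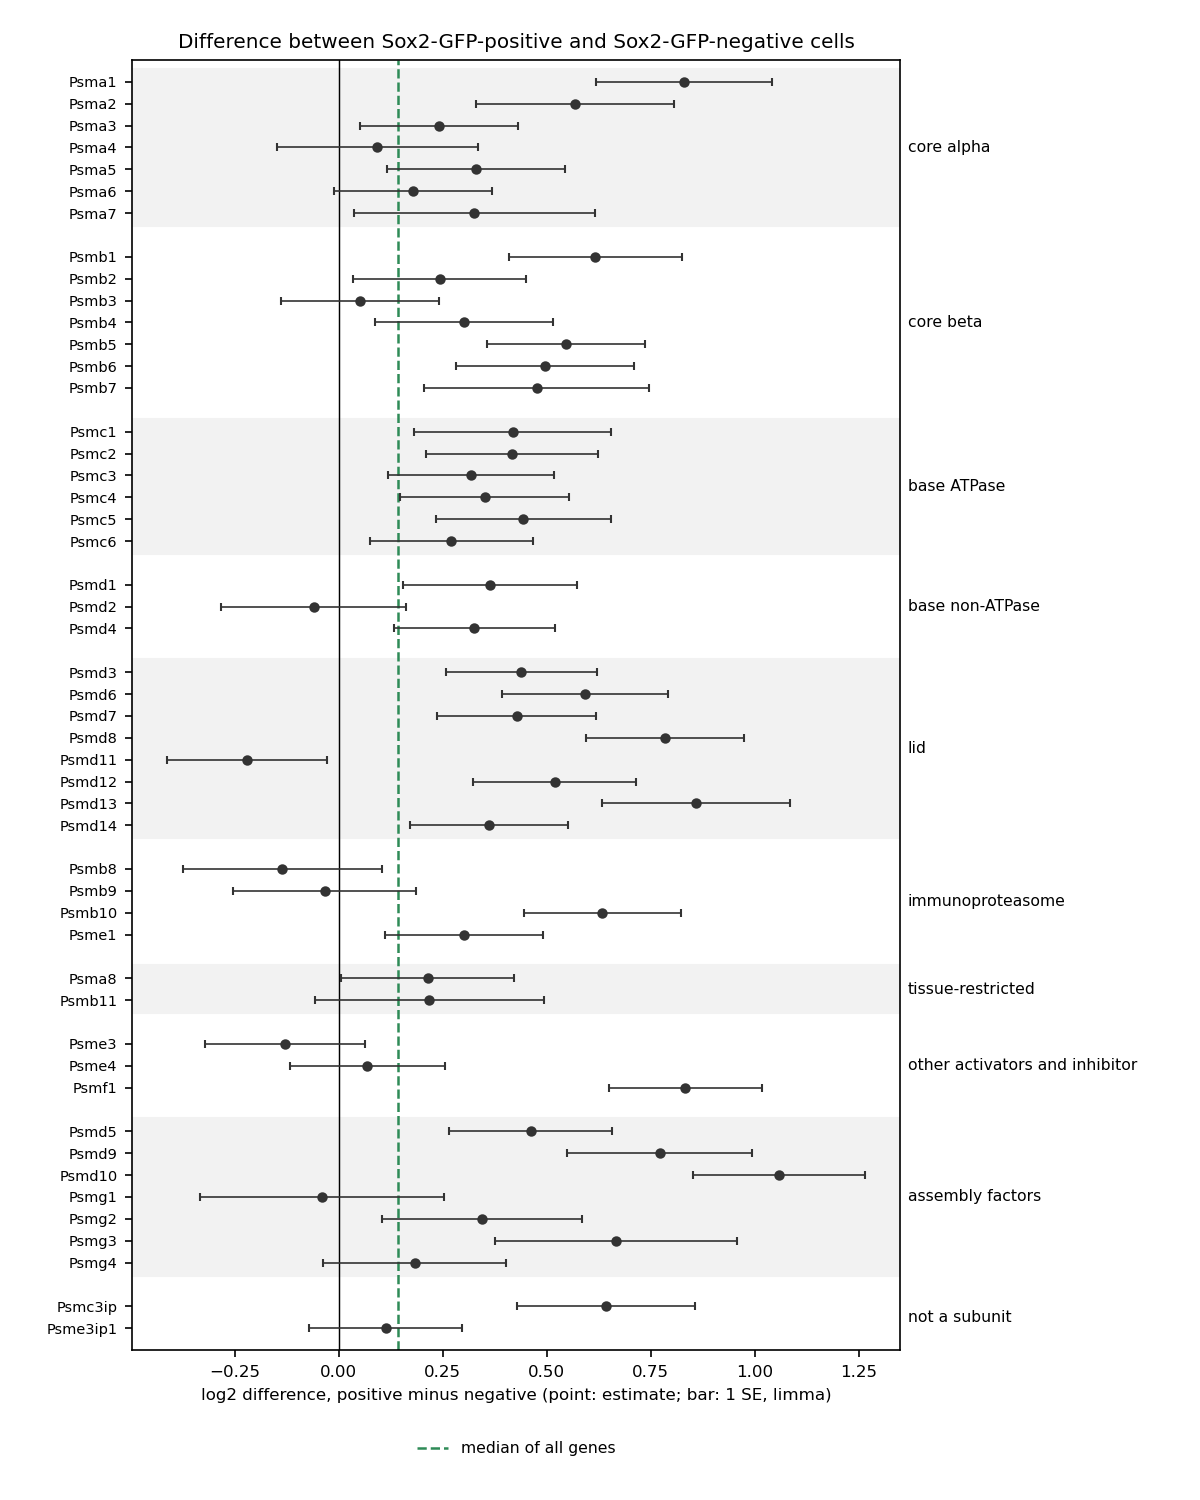
Log2 difference, positive minus negative (x axis), for each proteasome gene (y axis, by subunit group); points are limma estimates, bars 1 SE, n = 2 arrays per group, and the dashed line is the median of all genes at 0.14. Of the 31 core and cap genes, 29 have estimates above 0, and Psmd10 stands farthest to the right at 1.06.

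The assembly factors, chaperones that build the particle and leave it, were uneven. Psmd10, also called gankyrin, a base assembly chaperone that also binds the retinoblastoma protein, read 7.68 and 7.37 in positive and 6.49 and 6.44 in negative arrays. Its difference of 1.06 ± 0.21 SE (n = 2 per group, limma adjusted p = 0.200) was a 2.08-fold ratio and stood at rank 393 of 18193 genes. Psmd9, another base chaperone, read 8.73 and 8.55 against 7.69 and 8.05 (0.77 ± 0.22 SE, adjusted p = 0.250), and Psmd5, the third, 8.56 and 8.81 against 8.23 and 8.22 (0.46 ± 0.20 SE, adjusted p = 0.366). All 3 base chaperones were thus separated upwards, but Psmd9 had 0.24 with its 3 probe sets averaged. Of its dim probe sets, 1 was separated downwards and 1 upwards, the latter at 5.70 and 5.19 against 4.78 and 5.14. The chaperones of the core were less uniform: Psmg3 differed by 0.67 (8.28 and 7.58 against 7.22 and 7.31) and Psmg2 by 0.34, while the groups of Psmg1 overlapped with negative replicate 2 highest (8.41 and 8.27 against 8.03 and 8.74), and so did those of Psmg4 (6.89 and 7.17 against 6.98 and 6.71). The list median was 0.46, with 5 of 7 separated upwards.

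Of the alternative regulators, the inhibitor and the activators differed in the values of their brightest probe sets. Psmf1, known as an inhibitor of the core in the test tube, read 7.95 and 7.88 in positive and 7.11 and 7.05 in negative arrays, with tight groups on this probe set (0.83 ± 0.18 SE, n = 2 per group, limma adjusted p = 0.210), a 1.78-fold ratio. With its 4 probe sets averaged the difference was 0.26, and the next brightest had overlapping groups, at 5.38 and 6.14 against 6.03 and 5.07. The nuclear activator Psme3 read 11.12 and 10.97 against 11.24 and 11.10 (-0.13 ± 0.19 SE, adjusted p = 0.772), and Psme4, an activator of nuclear and testis proteasomes, 9.72 and 9.59 against 9.56 and 9.61 (0.07 ± 0.19 SE, adjusted p = 0.882). Both had overlapping groups on these probe sets. A dimmer probe set of each was separated upwards, for Psme3 at 10.62 and 10.27 against 10.18 and 10.06. For Psme4 it read 9.29 and 9.37 against 8.59 and 9.23. With all probe sets of a gene averaged, Psme3 had 0.14 and Psme4 -0.28. The tissue-restricted subunits were dim, as Psma8, of the testis, read 3.64 to 4.03 and Psmb11, of the thymus cortex, 4.08 to 4.73, at or below the array medians, so their differences (0.21 and 0.22) give no measure of a change. Psmc3ip, a recombination protein and not a proteasome part, read 8.67 and 8.31 against 7.87 and 7.82 (0.64 ± 0.21 SE), and Psme3ip1 differed by 0.11.

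Several members had more than 1 probe set, and these allowed the same genes to be read again. Of 103 probe sets, 78 had a mean above 5.60, the highest array median, a limit chosen after the values were seen. The 25 dimmer ones were left out of the counts of signs that follow. Apart from the brightest probe set of each gene, 31 were above that limit, and 24 of them had a positive difference. In 15 of 21 genes with several such probe sets all had one sign, and in 6 the signs differed (Psma1, Psma3, Psmd11, Psme3, Psme4 and Psmg2). The widest disagreement with an opposite order was in Psma3, whose dimmer probe set read 6.05 and 6.54 in positive and 7.24 and 7.54 in negative arrays, beside 11.63 and 11.45 against 11.29 and 11.31 on the brighter one. For Psmd13 both probe sets above the limit lay higher, by 0.86 and 0.76, and the average of all 4 was 0.45. Averaging also lowered Psma5 to 0.22, Psmd7 to 0.27 and Psmg3 to 0.35, brought Psmb8 to 0.0037 and turned Psme3 to 0.14 and Psme4 to -0.28. Proteasome subunits have processed pseudogenes in the mouse genome, and whether these hybridise to the same probes was not tested.

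**Figure D4:**
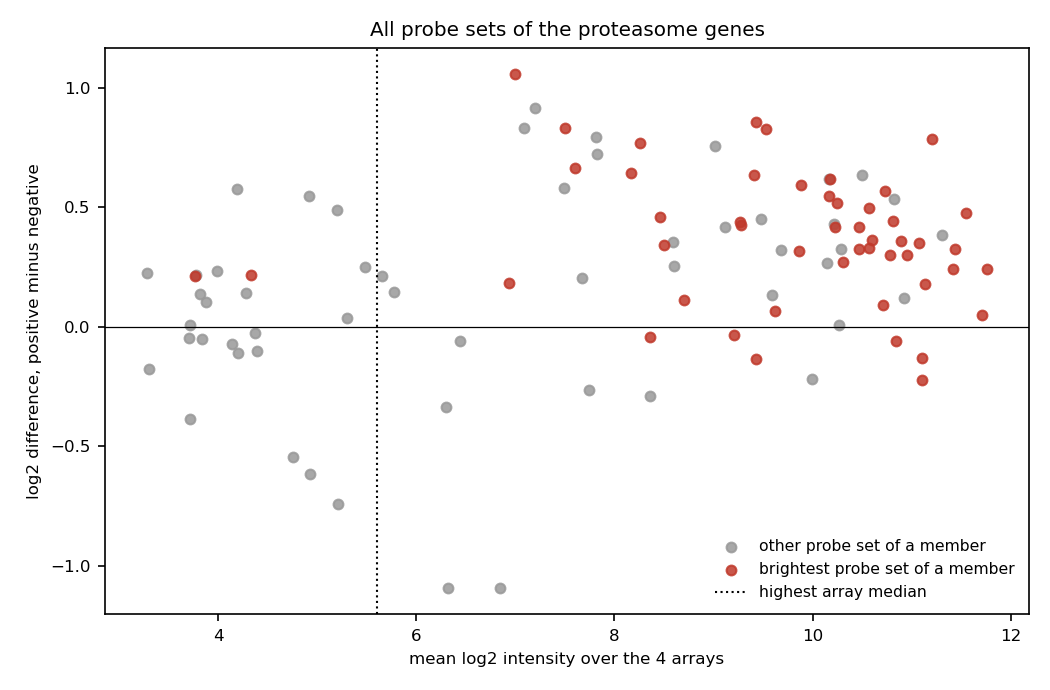
Mean log2 intensity over the 4 arrays (x axis) and log2 difference, positive minus negative (y axis), for all 103 probe sets of the proteasome genes; red points are the brightest probe set of a gene, grey points the others, and the dotted line is the highest array median (5.60). Of the grey points right of the line, 24 of 31 lie above 0.

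Other genes of the ubiquitin and proteasome system mostly ran with the core and cap. Of the 9 further proteasome parts and partners listed, 7 were measured, 6 were separated upwards and 1 downwards, with a median of 0.27. Beside this list and those that follow, 35.5% of all genes were separated upwards and 14% downwards. Sem1, a small lid subunit, read 12.28 and 12.35 against 11.84 and 11.89 (0.45 ± 0.18 SE), and Usp14, a proteasome-bound deubiquitinase, 9.72 and 9.59 against 9.30 and 9.16 (0.42 ± 0.19 SE). Ecpas, a proteasome adaptor, was lower, at 9.86 and 10.18 against 10.71 and 10.50 (-0.58 ± 0.22 SE, adjusted p = 0.324). Of 9 measured shuttle and segregase genes, which bring ubiquitinated proteins to the proteasome, 6 were separated upwards and none downwards (median 0.34), with Ubqln2 at 10.16 and 10.07 against 9.63 and 9.23. Only 1 of 6 listed ubiquitin and ubiquitin-activating enzyme genes had a probe set of its own symbol, Uba6, with overlapping groups. The COP9 signalosome, a complex related in build to the lid, had 7 of 9 genes separated upwards and none downwards (median 0.33), with Cops6 at 10.42 and 9.95 against 9.36 and 9.54. These medians stand beside the 0.36 of the core and cap, and the difference between the lists was not tested. The list around Nfe2l1 had 1 of 7 measured genes separated upwards and 2 downwards (median -0.15). Nfe2l2, the regulator of antioxidant genes, read 10.63 and 10.79 against 10.43 and 10.27, and Nfe2l1 itself, named although outside the rule for named genes, 9.76 and 9.50 against 9.67 and 9.88.

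The genes that use or accompany the immunoproteasome had lower list medians of the difference than the core and cap. Of the 12 class I peptide loading genes, 4 were separated upwards (33.3%) and 6 downwards (50%), with a median of -0.01. Over all genes the shares were 35.5% and 14%. Nlrc5, the transactivator of MHC class I genes, read 7.30 and 7.18 in positive and 8.79 and 8.55 in negative arrays (-1.43 ± 0.20 SE, n = 2 per group, limma adjusted p = 0.180, and 0.0755 with the replicate block). The peptide transporter genes Tap1 and Tap2 were also separated downwards: Tap1 read 8.35 and 8.37 against 8.80 and 8.80, while for Tap2 the values were 7.30 and 7.17 against 7.59 and 7.64. Tapbpl, a peptide editor, lay on the other side at 7.16 and 7.70 against 6.62 and 6.91. Of 23 interferon response genes listed, 21 were measured, and 2 were separated upwards (9.5%) and 11 downwards (52.4%), with a median of -0.39. Those upwards were Socs1, at 6.03 and 6.72 against 4.94 and 5.75 (1.03 ± 0.39 SE), and Ifngr2 with 0.44. Oasl2, an antiviral gene, read 5.62 and 5.41 against 7.18 and 6.75, Igtp, an interferon gamma-induced GTPase, 5.95 and 5.69 against 6.91 and 7.22, and Irf9, part of the type I interferon signal, 6.53 and 6.83 against 7.63 and 7.88. None of the 33 genes passed the test (lowest adjusted p = 0.180).

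**Figure D5:**
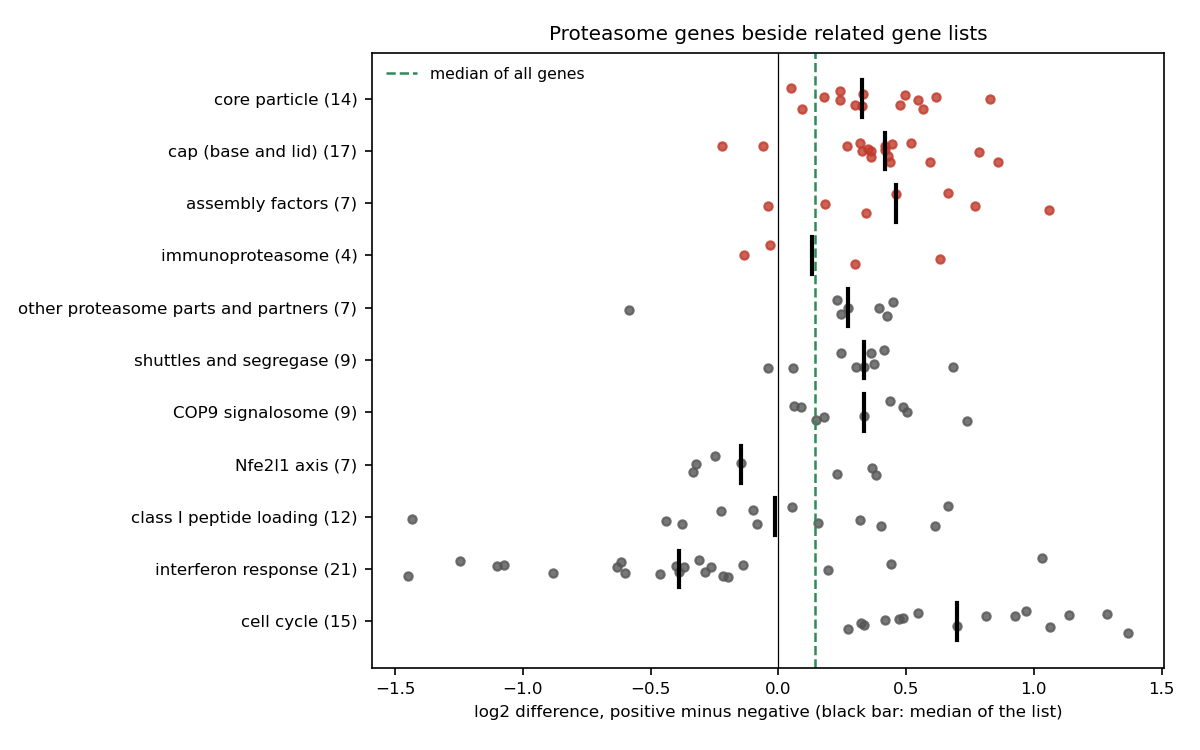
Log2 difference, positive minus negative (x axis), for proteasome subunit groups (red) and related gene lists (grey), 1 point per gene with the number of genes in brackets; black bars are list medians and the dashed line is the median of all genes (0.14). The core, cap, partner, shuttle and COP9 lists have medians of 0.27 to 0.42, the interferon response list -0.39 and the cell cycle list 0.70.

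The cell cycle genes lay apart between the groups, while the lists of other cell types did so only in part. Over all genes, 35.5% were separated upwards and 14% downwards. All 15 measured cell cycle genes were separated upwards (median 0.70), and they averaged 9.41 and 9.34 log2 units in positive and 8.55 and 8.72 in negative arrays, beside 10.88 and 10.69 against 10.41 and 10.39 for the core and cap. The leukocyte list of 12 genes, cells that make much immunoproteasome, had mean levels of 5.90 and 5.24 in positive and 6.90 and 5.69 in negative arrays, with 1 gene separated upwards and 3 downwards. Of these 12, 10 had lower means in positive cells (list median -0.92), although the groups overlapped for 8 of the 12. Laptm5, a lysosomal protein of blood cells, was separated downwards with -1.60. Csf1r, a macrophage receptor, had -1.54 with overlapping groups, at 6.21 and 4.44 against 8.22 and 5.51. The gene separated upwards was Cd68, at 7.976 and 7.463 against 7.456 and 7.284. The defining marker Ptprc, which encodes CD45, was dim at 4.98 and 4.34 against 4.97 and 4.18. The antigen-presenting list of 8 genes had 6.45 and 5.89 against 7.83 and 7.41. Separated downwards were 4 of them, Cd74, H2-Ab1, H2-Aa and H2-Eb1. The groups overlapped for the other 4, with -1.73 for Ctss, -0.20 for Itgax, -0.06 for Cd207 and 0.05 for Ciita. The endothelial list of 8 genes had 5.91 and 5.16 against 7.20 and 5.80, with 2 genes separated downwards and 6 overlapping. None of these genes passed the limma test as fitted; with the replicate number as a block it called 3 antigen-presenting, 5 fibroblast and 1 endothelial gene lower (lowest adjusted p = 0.0262). The part of these cells, and of proliferation, in the proteasome values was not tested.

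The sign of the difference turned for 3 of the 49 members under quantile normalization and for 6 under spike-in scaling. Quantile normalization lowered the median of all genes to 0.06 and turned Psmb3, Psme4 and Psme3ip1 to values just below 0, with 31 of 49 members separated upwards and 2 downwards beside 28.9% and 18.9% of all genes. Scaling by the spiked poly-A control transcripts added 0.79 to every difference, raised the median of all genes to 0.93 and put all 49 members above 0, Psmb8, Psmb9, Psmd2, Psmd11, Psme3 and Psmg1 included, with 84.8% of all genes separated upwards. Relative to the median of all genes, the core and cap stood 0.22 higher as deposited and 0.21 higher after quantile normalization; spike-in scaling cannot change this value, since it moves all genes alike.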

How the data were processed

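RNA was amplified and biotin-labelled before hybridisation, with 1 mouse Affymetrix array per sample, per the labels' protocols. The authors deposited 1 table of log2 values for 45101 probe sets; the log2 scale was read from the values (2.73 to 14.36). The submitters' processing notes name R 2.14.0; how background and normalization were handled is not given in the sources used here. Groups and replicate numbers came from the titles. Probe sets with 1 symbol in the platform annotation (34945) were used and 64 control probe sets left out; each of 18193 genes was read from its brightest probe set. Arrays hold no depth: their number limits the precision.

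The test was limma (3.58.1, R 4.3.3, lmFit and eBayes, group as the only term, 2 residual degrees of freedom). The threshold was an adjusted p under 0.05 by Benjamini-Hochberg over all genes. A check of the fit on simulated data gave every gene the same spread. It therefore does not show the power of the test on these arrays. "Separated" means that both positive arrays lie above, or both below, both negative arrays. The members, the lists and the rule for named genes were chosen with earlier results of these data known. By that rule, members with a gap of 0.5 or more between groups, catalytic, immunoproteasome and opposite ones were named in full. From other lists it took up to 6 genes by smallest p. Among the listed genes, Krt5, Ptprc, Nfe2l1, Socs1, Ifngr2, Cd207 and Ciita were named outside the rule, and not every gene within it was named. Alternatives were the replicate block, quantile, equal-median and poly-A spike-in scaling (24 probe sets), brighter genes only, averaging the probe sets of each gene, trended and robust priors, and leaving out each array. The series text names 2 tumours of 2 mice but does not tie the numbers to them; differences between replicates 1 and 2 correlated between the groups with r = 0.16, across genes, which are not independent replicates. Protein sequences were not used here. Promoter windows came from RefSeq (GRCm38.p6).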

Additional observations from a re-analysis of the deposited data

How the results depend on the processing

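Under the replicate block, read as a pairing that the labels do not state, 13 genes were higher and 158 lower over all genes at an adjusted p of 0.05, and no proteasome gene was called; combined with quantile normalization the block called 0. The trended prior called 1 higher and 18 lower gene, none of them a proteasome gene. Poly-A spike-in scaling, which adds the same constant to every difference, called 12559 higher and 158 lower genes and 46 of the 49 proteasome genes, separated 49 upwards and 0 downwards, and gave medians of 1.12 for the core, 1.21 for the cap, 0.92 for the immunoproteasome and 1.25 for the assembly factors. Separated downwards were 2 members after quantile normalization (with or without the block) and 2 with equal medians (15.9% of all genes), beside 1 as deposited. Leaving out each array gave 39 to 42 members separated upwards and 2 to 4 downwards, where 1 array then stands for a group, which is assumed to vary like the other, and 46.5% to 55.2% of all genes are separated upwards and 23.4% to 28.0% downwards. Medians then ran from 0.15 to 0.57 for the core, 0.29 to 0.49 for the cap, 0.01 to 0.26 for the immunoproteasome and 0.32 to 0.57 for the assembly factors, and no gene was called. With the mean of all probe sets of a gene, 5 members changed sign (Psma1, Psma3, Psmb8, Psme3 and Psme4). The robust prior, equal medians, quantile normalization and brighter genes alone called 0 genes.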

Other observations

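The probe set shared by Psme2 and Psme2b, which no member count includes, read 10.43 and 10.20 in the Sox2-GFP-positive and 10.24 and 10.17 in the Sox2-GFP-negative arrays, a log2 difference of 0.11 with overlapping groups. Psme2 is the partner of Psme1 in the activator ring induced by interferon gamma, and Psme1 differed by 0.30.

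The difference between positive and negative cells was larger within replicate 1 than within replicate 2 for 36 of the 49 proteasome genes, and for 10369 of the 18193 genes measured. Among the beta subunits of the constitutive core this held for 7 of 7, among the base ATPases for 3 of 6.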
